A study of Mus musculus with 3 samples.

Results

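Tendon that is pressed against bone carries a matrix close to that of cartilage, called fibrocartilage, and 8 genes known from that matrix were followed here in cells of the flexor digitorum longus (FDL) tendon of the mouse hind paw. They are Acan (ENSMUSG00000030607), Vcan (ENSMUSG00000021614), Prg4 (ENSMUSG00000006014), Hapln1 (ENSMUSG00000021613), Cilp (ENSMUSG00000042254), Cilp2 (ENSMUSG00000044006), Ucma (ENSMUSG00000026668) and Sox9 (ENSMUSG00000000567), picked by symbol, and all 8 were found among the 32285 genes counted. Single-cell RNA sequencing was run on 3 libraries, each from 16 tendons pooled from mice of both sexes. The 6 M WT library (WT below) came from Scx-Cre-; DTR F/+ mice and the 6 M DTR library (DTR) from Scx-Cre+; DTR F/+ littermates, both given 5 daily injections of diphtheria toxin (DT) at 3 months of age and harvested at 6 months by the study's account, whereas the labels give 3 months. The 21 M B6 library (B6) came from untreated C57/Bl6 mice of 21 months. All 3 are labelled C57BL/6J. The study set young tendons depleted of Scx-lineage cells beside tendons of naturally aged mice.

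In the DTR mice Cre is driven by the promoter of Scx, a tendon transcription factor, and switches on a diphtheria toxin receptor, so that DT kills cells that have used that promoter, whether or not they still make Scx. The tenocytes of the DTR library are therefore cells that were left or that came later. WT tendons were digested for 120 min and the other tendons for 90 min. WT and DTR thus differed in genotype and digestion time. B6 differed from both in genotype, age and toxin, and from WT in digestion time as well. Among the kept cells, those called female and male numbered 5104 and 1991 in WT, 2145 and 3101 in DTR and 2164 and 1711 in B6. In a comparison of these libraries such differences cannot be told apart. With 1 library per group there is no replicate: nothing was tested, and every range below is an exact 95% interval that covers counting error only.

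Aggrecan and versican are large proteoglycans that hang from hyaluronan chains by their heads, and link proteins such as Hapln1 lock that bond, which gives cartilage its resistance to compression. Lubricin, the product of Prg4, keeps sliding surfaces from sticking. Cartilage intermediate layer proteins (Cilp and Cilp2) are secreted matrix proteins, Ucma is a small gamma-carboxylated protein of cartilage, and Sox9 is the transcription factor that drives the cartilage programme, Acan included. In tendon, Sox9 and Scx together mark the progenitors that form the attachment to bone.

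The sequences before the start of 3 members are shown because Acan and Hapln1 were the members over 2-fold higher in DTR than in WT tenocytes and Vcan was lower there, although Hapln1 and Vcan are neighbours on chromosome 13 with 0 protein-coding genes between them in the RefSeq annotation. They are the 250 bases before the annotated start, read 5′ to 3′ on the gene's own strand from RefSeq (GRCm38.p6): chr7:79052976-79053225 on the plus strand for Acan, chr13:89540386-89540635 on the plus strand for Hapln1 and chr13:89742513-89742762 on the minus strand for Vcan. Capitals mark matches, on either strand, to the SOX core ACAAT, to the CCAAT box, to the TATA box TATAA and to the GC box GGGCGG. On the opposite strand these read as ATTGT for the first, ATTGG for the second, TTATA for the third and CCGCCC for the last.
Acan: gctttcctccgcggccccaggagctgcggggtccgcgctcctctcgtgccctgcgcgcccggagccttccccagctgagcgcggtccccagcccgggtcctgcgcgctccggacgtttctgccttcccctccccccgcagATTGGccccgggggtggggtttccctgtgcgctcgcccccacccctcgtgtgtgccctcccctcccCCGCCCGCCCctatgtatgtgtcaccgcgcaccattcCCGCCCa
Hapln1: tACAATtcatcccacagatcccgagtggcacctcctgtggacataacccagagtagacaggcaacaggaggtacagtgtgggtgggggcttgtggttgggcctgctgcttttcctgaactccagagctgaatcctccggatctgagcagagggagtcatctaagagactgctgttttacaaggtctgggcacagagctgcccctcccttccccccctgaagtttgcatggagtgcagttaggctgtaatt
Vcan: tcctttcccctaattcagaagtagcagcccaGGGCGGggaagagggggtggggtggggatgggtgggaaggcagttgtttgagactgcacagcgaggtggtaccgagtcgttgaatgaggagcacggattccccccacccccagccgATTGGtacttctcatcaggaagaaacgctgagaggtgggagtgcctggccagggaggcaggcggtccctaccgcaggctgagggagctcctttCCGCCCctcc
Acan and Vcan each held a CCAAT box, which lay 110 and 103 bases before the start, and GC boxes, the nearest of them 7 and 10 bases before it. In Acan a pair of GC boxes at 44 and 40 bases shared letters. Hapln1 held no box of either kind and a single SOX core 249 bases before the start. The bases were 74.4% G or C in Acan, 62.4% in Vcan and 54.4% in Hapln1. Among 32851 promoters of the same length, 27.7% held a SOX core, 33.8% a CCAAT box, 22.8% a TATA box and 32.7% a GC box. Of the 8 members, 6 had an entry in this table, and the matches are letters in a window, not sites shown to bind anything.

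After filtering, 8357, 6554 and 4798 cells were kept in WT, DTR and B6, with median depths of 13008, 12328 and 12914 unique molecular identifiers (UMIs, each 1 counted RNA molecule). Barcodes with over 10% mitochondrial UMIs, which were left out, made up 27.6%, 43.1% and 56.5% of all barcodes, and the part of this in the differences between libraries was not tested. Between 13 and 15 kept barcodes were shared by each pair of libraries. A cell was called a tenocyte when UMIs of at least 3 of 6 tenocyte markers (Tnmd, Fmod, Thbs4, Mkx, Fibin, Scx) were found in it and no other class reached 3 of its own, which gave 5173, 2794 and 869 tenocytes. All 6 of these markers were detected in the tenocytes of each library. Epitenon cells, the fibroblasts of the tendon surface, numbered 899, 846 and 2247. Levels are given as CPM, a gene's share of all UMIs of its class of cells, scaled to the usual fixed total. With this 3′ counting, a molecule gives 1 UMI whatever its length. Whether genes are captured equally well was not tested, so levels set side by side across genes give a rough order only.

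The 8 members covered a range of over 3 orders of magnitude in tenocytes. Prg4 stood far above the rest, at 11019 CPM (10995 to 11044) in WT, 9434 in DTR and 8632 in B6. Cilp and Cilp2 followed, at 1429 and 1135 CPM in WT. Vcan and Sox9 were found at 315 and 129 CPM, Ucma at 61.1, and the aggrecan and link protein pair typical of cartilage at 9.37 (8.67 to 10.1) for Acan and 5.64 (5.09 to 6.23) for Hapln1. No member was picked as a marker of any class, although Cilp2 and Ucma were among the 10 genes that stood out most in the tenocyte class.

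**Figure D1:**
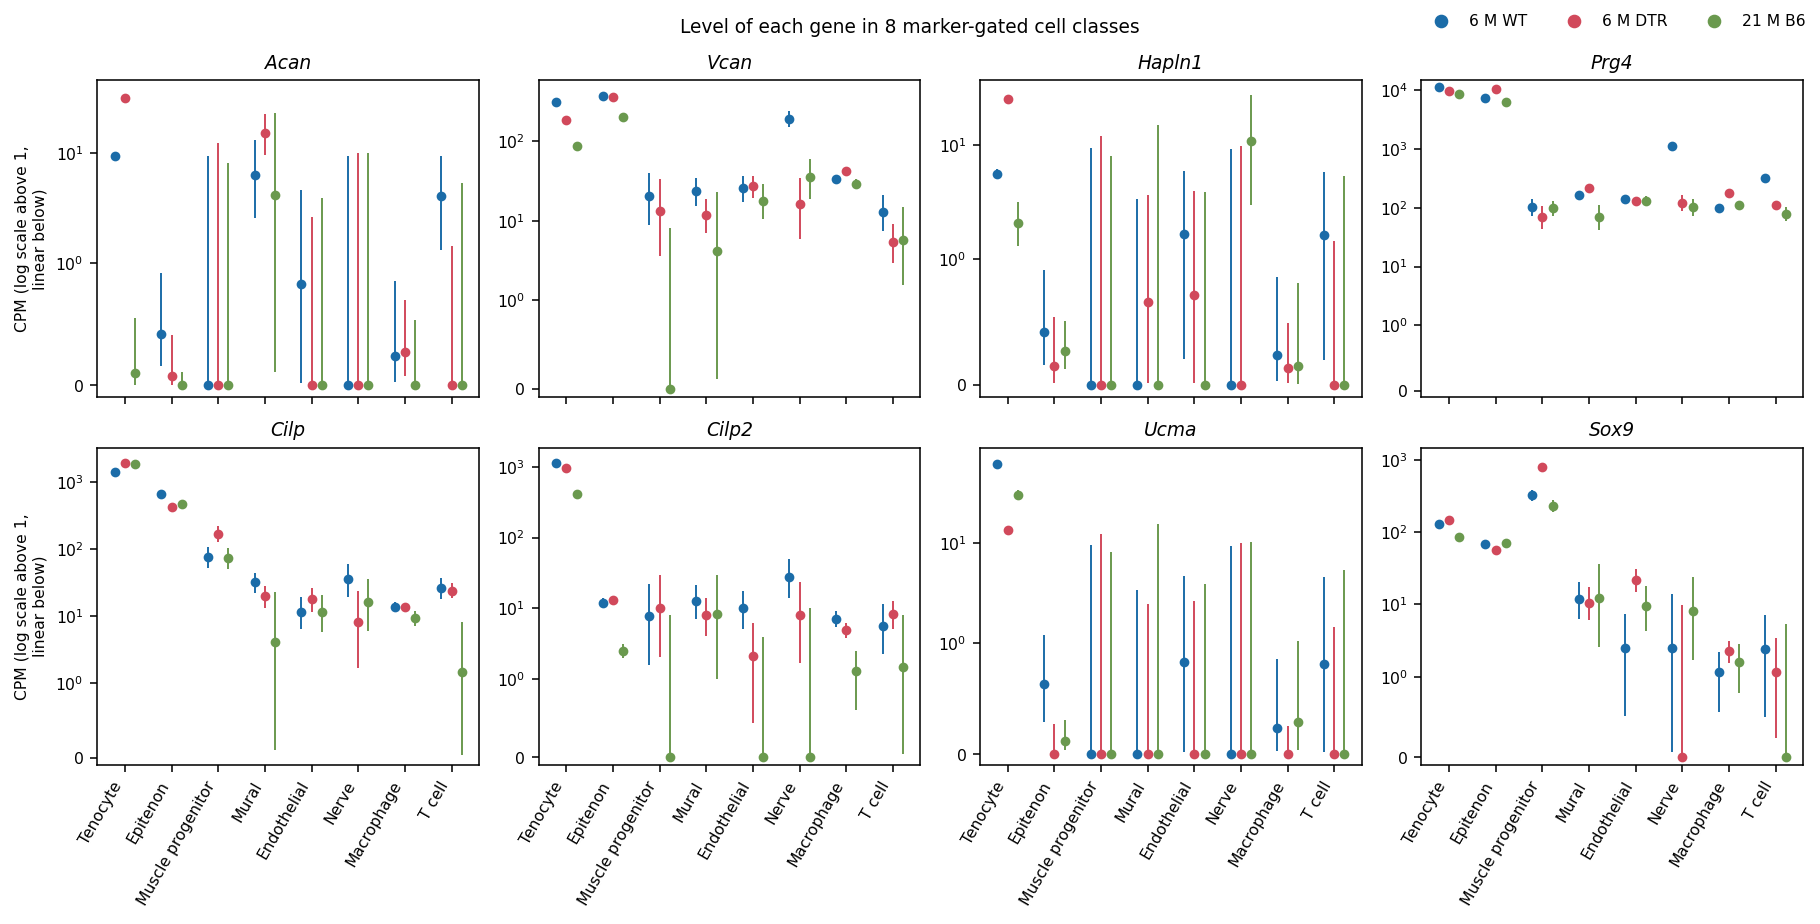
Level of each member (CPM, on an axis that is log above 1 and linear below) in 8 marker-gated classes, with 1 point per library and exact 95% Poisson intervals. Cilp2 and Ucma are highest in tenocytes in each library, Vcan in the epitenon and Sox9 in muscle progenitors.

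Between cell classes the members fell into those found mostly in tenocytes (Cilp2 and Ucma, and in WT and DTR also Acan and Hapln1 at lower levels) and those shared with the epitenon (Vcan, Prg4, Cilp and Sox9). Of the members with at least 20 CPM in either class, 3 of 6 were over 2-fold higher in tenocytes than in the epitenon in WT, against a background of 4.33% of all genes, and none was over 2-fold lower, against 10.7%. In DTR the count was 5 of 7, against 5.27%, and none was over 2-fold lower, against 7.73%. In B6 it was 3 of 6, against 5.04%, and Vcan was over 2-fold lower, against 10.6%. Cilp and Cilp2 were among the higher members in each library. Acan and Hapln1 reached 20 CPM in DTR only and were not counted in the others. Cilp2 in each library, Ucma in WT and B6, and Acan and Hapln1 in DTR passed this limit in tenocytes and not in the epitenon, so that their place in these counts follows in part from the limit.

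Cilp2, the closest relative of Cilp, was the clearest separator of abundant members. It was found at 1135, 971 and 419 CPM in tenocytes of WT, DTR and B6 and at 11.9, 12.9 and 2.48 CPM in the epitenon, which is 95.4, 75.0 and 169-fold higher in tenocytes. Ucma was at 61.1, 13.5 and 30.1 CPM in tenocytes and at 9, 0 and 4 UMIs in all epitenon cells, a difference of 97.0-fold in WT, at least 60.5-fold in DTR (taking 3 UMIs over all epitenon cells as the limit) and 255-fold in B6. Tenocytes held 94.3%, 95.7% and 78.4% of all Ucma UMIs of the kept cells. With classes taken from clusters in place of markers the folds were 26.5, 56.9 and 45.6 for Cilp2 in WT, DTR and B6, and 21.9, 90.7 and 35.4 for Ucma, all smaller than with markers except the DTR value of Ucma, which stands beside a lower bound. In WT they were 9.73 for Acan and 4.26 for Hapln1.

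Acan was 22.3-fold (10.2 to 61.0) higher in tenocytes than in the epitenon in WT, from 650 against 6 UMIs. In DTR it stood at 1171 UMIs against 1, a ratio of 429 (76.9 to 16961) whose upper end is set by that single UMI. Among the other classes, the mural cells that wrap small vessels held the most Acan, at 6.36 CPM (2.56 to 13.1), 15.2 (9.64 to 22.8) and 4.14 CPM, the last from 1 UMI. In WT the mural interval overlapped that of tenocytes, and in DTR it lay below. Kept cells that fell in no class held 111, 43 and 4 Acan UMIs, or 14.8 CPM (12.2 to 17.8) in WT, above its tenocytes, 5.32 in DTR and 0.618 in B6, where the kept cells held 6 UMIs in all. Hapln1 was 13.4-fold higher in tenocytes than in the epitenon in WT, 171-fold in DTR and 7.83-fold in B6. In WT its tenocyte interval overlapped that of endothelial cells, the next class. In B6, 4 UMIs in nerve cells gave 10.9 CPM for Hapln1, with an interval that overlapped the tenocyte level.

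Vcan went the other way. The epitenon held 374, 357 and 201 CPM and tenocytes 315, 187 and 87.6 CPM, so that tenocytes stood at 0.841, 0.522 and 0.437 of the epitenon level. The epitenon was the highest class for Vcan in all 3 libraries. Macrophages, in which Vcan reached 33.2, 42.0 and 29.4 CPM, were well below both fibroblast classes. In tenocytes the Vcan order between libraries was WT, DTR, B6, with no overlap of intervals between neighbours.

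Prg4 was at 7259, 10479 and 6199 CPM in the epitenon. It was 1.52-fold higher in tenocytes in WT, at 0.900 of the epitenon level in DTR and 1.39-fold higher in B6. The order in DTR turned with a mitochondrial limit of 5% (log2 ratio 0.018) and with a gate of 4 markers (0.58). Inside the epitenon class Prg4 was very uneven. The cells with UMIs of all 3 of Clic5, Tspan15 and Cd55, genes of lining fibroblasts, numbered 51, 62 and 135 and held 49913, 71644 and 39989 CPM, while the rest of the epitenon held 3912, 4223 and 3427 CPM. In each library those lining-type cells thus held more Prg4 than tenocytes did. Cells with the same 3 genes that fell in no class, 56, 60 and 64 of them, held 22950, 60385 and 45288 CPM. The lining-type cells of the epitenon were low in Cilp, at 58.7, 8.82 and 107 CPM, against 700, 470 and 498 CPM in the rest of the epitenon, and Vcan stood at 860, 242 and 294 CPM in them.

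Cilp was higher in tenocytes than in the epitenon by 2.19-fold in WT, 4.50-fold in DTR and 3.93-fold in B6. Sox9 was higher by 1.86, 2.57 and 1.22-fold. Sox9 was not highest in tenocytes: muscle progenitors, 34, 36 and 47 cells that carry Myod1, Pax7 and the like, held 321 (267 to 382), 801 (703 to 909) and 231 (189 to 279) CPM, above the 129, 147 and 85.5 CPM of tenocytes in each library. Of the 8 members, 6, 5 and 4 had their highest level in tenocytes in WT, DTR and B6. The share of all genes highest in tenocytes was not counted. In WT the tenocyte intervals of Acan and Hapln1 overlapped those of the next class. In B6 mural cells stood above tenocytes for Acan and nerve cells for Hapln1, from a few UMIs and with overlapping intervals. The 3 counts are therefore not to be read as an order of the libraries.

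RNA freed from broken cells gives UMIs in cells that do not make a gene, and its level differs by gene. In macrophages, which should lack them, Prg4 gave 100, 176 and 109 CPM and Cilp 13.7, 13.6 and 9.32 CPM. Cilp2 gave 7.09, 4.90 and 1.31 CPM there, beside 11.9, 12.9 and 2.48 CPM in the epitenon. The part of freed RNA in these epitenon levels, and so in the folds of Cilp2, was not tested. After thinning every cell to 2000 UMIs, 16.1%, 16.2% and 17.4% of macrophages held a Prg4 UMI, at a median depth of 15983, 12983 and 13523 UMIs before thinning. For Sox9 the share in macrophages was 0.194%, 0.565% and 0.630%, and the Acan UMIs in them numbered 2, 4 and 0. Tenocytes stood above these shares for every member in WT and DTR.

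Between DTR and WT tenocytes, the cartilage-type pair stood out. Of the 8 members, Acan and Hapln1 were over 2-fold higher in DTR, against a background of 2.14% of 5510 genes, and Ucma was over 2-fold lower, against 1.62% (3.76% either way). These 3 members reached 20 CPM in 1 library only, the one where they were higher. With a limit of 5 CPM, which all 8 members passed in both libraries, the backgrounds were 3.02% higher, 1.65% lower and 4.67% either way. Acan went from 9.37 CPM in WT to 31.9 CPM (30.1 to 33.8) in DTR, a ratio of 3.41 (3.09 to 3.75). Hapln1 went from 5.64 to 25.5 CPM, a ratio of 4.53 (4.02 to 5.11). Ucma was at 61.1 CPM in WT and 13.5 CPM (12.3 to 14.7) in DTR, which is 4.53-fold lower (4.12 to 4.98). The other members moved less. Vcan was 1.69-fold lower (1.64 to 1.73) in DTR, Cilp was 1.35-fold higher, and Prg4, Cilp2 and Sox9 stood at 0.856, 0.855 and 1.14 of the WT level. The direction of Sox9 was not the same in the sexes, at 1.31 in female and 0.800 in male cells as called below. Scx itself was found at 93.1 CPM in tenocytes of WT and 114 CPM in those of DTR, although it was used to choose tenocytes in both.

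The higher Acan of DTR was larger in cells called male. Sex was called per cell: female where Xist but no Y-linked gene had a UMI, male where only the latter did. Females gave 3195 tenocytes in WT and 912 in DTR, and males 1206 and 1333. Female tenocytes held 10.4 CPM of Acan in WT and 13.6 in DTR, a ratio of 1.31 (1.09 to 1.56), whereas male tenocytes held 8.20 and 48.8 CPM, a ratio of 5.96 (4.94 to 7.24). Hapln1 was higher in DTR in both, by 3.41-fold in female and 6.38-fold in male cells. Ucma was lower in both, at 0.148 and 0.163 of the WT level. Both values lie further from 1 than the 0.221 of all tenocytes. In WT, Ucma stood at 37.5 CPM in female and 113 CPM in male cells, and the mix of the sexes differed between these libraries. The part of that mix in the ratios of all tenocytes was not tested. The sources used here do not give the number of mice of each sex, and the part that single mice play in the Acan level was not tested.

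In B6 tenocytes 7 of the 8 members were below their WT level, all but Cilp. All genes together were at a median log2 ratio of −0.26 against WT, so most of the genes compared were below WT too. The members are to be read against that shift, and Prg4, at a log2 ratio of −0.35, lay close to it. The share of all genes below WT was not counted. Of the 6 members with at least 20 CPM in either library, 3 were over 2-fold lower in B6, against a background of 2.03% of 5312 genes, and none was over 2-fold higher, where the background was 3.58% (5.61% either way). Vcan stood at 87.6 CPM (82.0 to 93.6) against 315 CPM in WT, 3.59-fold lower (3.36 to 3.85). Cilp2 stood at 419 against 1135 CPM, 2.71-fold lower (2.63 to 2.79). Ucma was at 30.1 against 61.1 CPM, 2.03-fold lower (1.80 to 2.28). By sex, Ucma stood at 28.5 against 37.5 CPM in female and 27.1 against 113 CPM in male cells, a ratio of 0.760 and 0.240, and Vcan at a ratio of 0.165 and 0.379.

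Acan was barely detected in B6 tenocytes. A single UMI was found in 10086124 UMIs of 869 cells, or 0.0991 CPM, with an interval that reaches 0.552 CPM. Its ratio to WT was 0.0106 (0.000267 to 0.0591). With 0 UMIs in cells called female or male, Acan was at least 13.1-fold lower than in WT in the former and at least 10.5-fold in the latter, taking 3 UMIs over all cells of the sex as the limit. Hapln1 was found as 21 UMIs, 2.08 CPM (1.29 to 3.18), a ratio of 0.369 (0.226 to 0.572) to WT. Both of these pairs lie below 20 CPM and so stand outside the counts above. Sox9 and Prg4 were at 0.664 and 0.783 of the WT level, and Cilp was 1.29-fold higher.

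Set against each other, B6 and DTR tenocytes differed over 2-fold in 5 of the 8 members. Acan, Hapln1, Vcan and Cilp2 were lower in B6, against a background of 5.34%, and Ucma was higher, against 4.14% (9.48% either way). Acan, Hapln1 and Ucma reached 20 CPM only in the library where they were higher. For Hapln1 the difference was 12.3-fold (7.97 to 19.9), for Vcan 2.13-fold and for Cilp2 2.32-fold, while Ucma was 2.23-fold higher (1.93 to 2.58). The count was 3 in male cells alone and 3 with TMM scaling, which moves the median of all genes in this comparison from −0.29 to 0.08. This comparison shares each of its libraries with one of the comparisons above. The young control thus lay between the depleted and the aged library for Acan and Hapln1 and above both for Vcan, Cilp2 and Ucma.

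**Figure D2:**
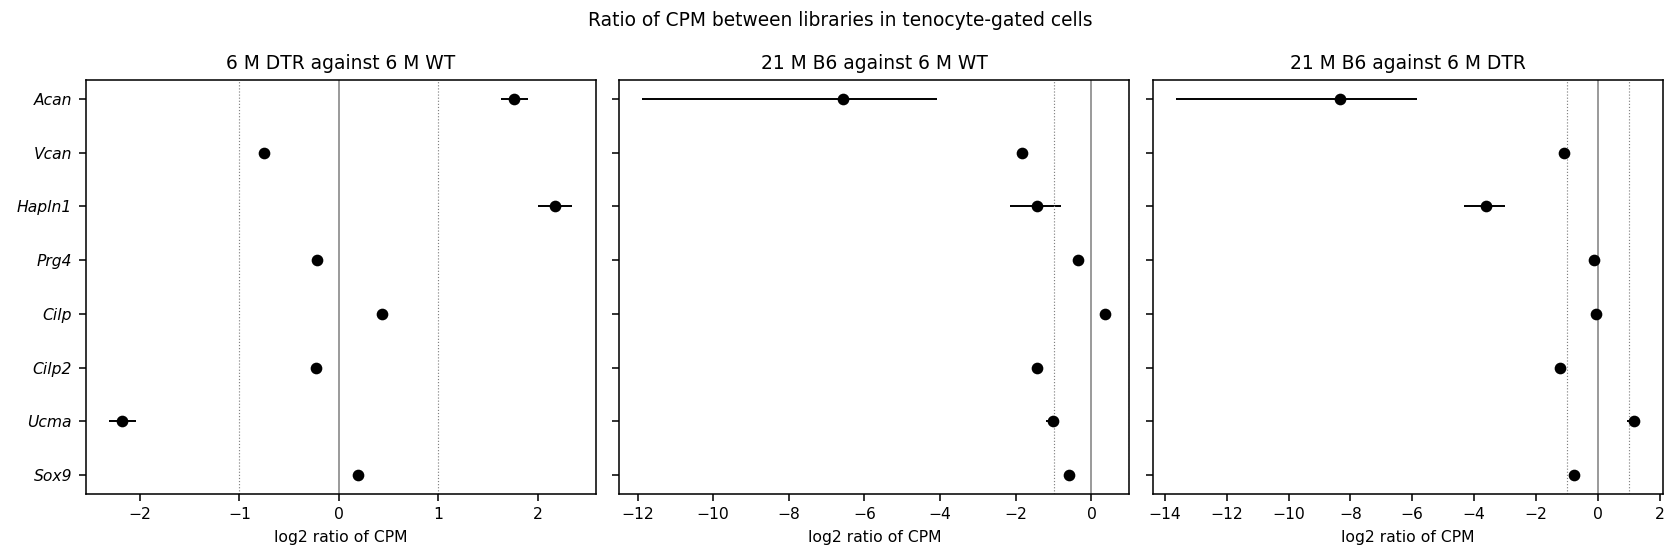
Ratio of CPM in tenocytes between each pair of libraries for the 8 members (log2 scale, 1 panel a pair, axes of different span), with exact 95% conditional intervals and dotted lines at 2-fold. Acan and Hapln1 lie above 2-fold and Ucma below it for DTR against WT, and Vcan, Cilp2 and Ucma lie below 2-fold for B6 against WT.

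Counted as shares of cells, the libraries stood in the same order as by CPM for 6 members, and DTR and B6 changed places for Cilp. For Prg4 nearly every cell held a UMI and no order of these libraries can be read. After thinning to 2000 UMIs, which left out 0 tenocytes, a UMI of Acan was found in 1.33% of tenocytes in WT (1.04 to 1.69), 3.94% in DTR (3.25 to 4.73) and 0 of 869 cells in B6, which allows a share of up to 0.345% when a count of 0 is taken to allow 3 cells. Without thinning the shares were 5.92%, 12.2% and 0.115%. Hapln1 was found in 0.986%, 3.90% and 0.115% of thinned cells, and Ucma in 7.23%, 2.33% and 5.06%. Most tenocytes thus gave no UMI of Acan, Hapln1 or Ucma at this depth, in any library.

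Prg4 was the opposite case, with a UMI in 99.1%, 98.5% and 98.6% of thinned tenocytes. Cilp was found in 74.8%, 84.4% and 89.1%, and Cilp2 in 73.5%, 67.5% and 44.1%. Vcan was found in 21.5%, 14.7% and 8.63% and Sox9 in 14.0%, 15.8% and 9.21%. For Vcan the epitenon shares were higher, at 33.0%, 32.2% and 21.8%, and the macrophage shares lower, at 4.85%, 6.87% and 4.20%.

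**Figure D3:**
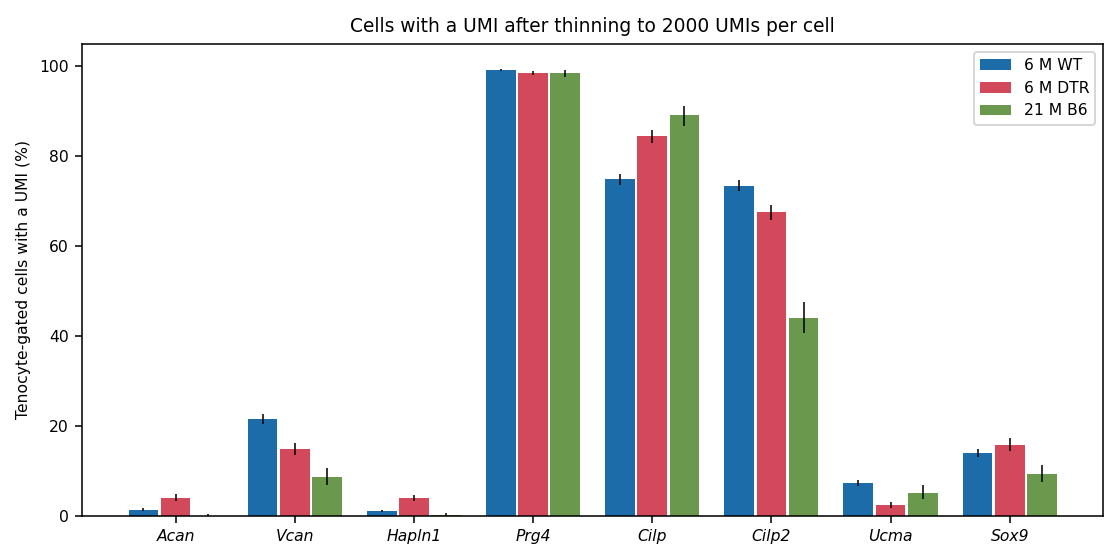
Share of tenocytes with at least 1 UMI of each member after every cell was thinned to 2000 UMIs (percent), with exact 95% binomial intervals, by library. Prg4 is near 99% in each library, Cilp2 is lowest in B6 at 44.1%, and Acan is at 0 of 869 cells there.

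How unevenly the members were spread over tenocytes was described by the smallest number of cells that together held 50% of a gene's UMIs. For Acan this took 52 of 5173 tenocytes in WT and 50 of 2794 in DTR, with up to 16 and 30 UMIs in a single cell. For Ucma it took 120, 28 and 18 cells, and for Vcan 224, 79 and 20 cells. For Hapln1 it took 66 cells in WT and 83 in DTR. Prg4, Cilp and Cilp2 were spread over many more, at 1232, 880 and 996 cells in WT. Prg4 nevertheless reached 1857 UMIs in a single DTR tenocyte.

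Cells with 1 member held others more or less often than the remaining tenocytes. In DTR, 17 of the 110 thinned tenocytes with Acan also held Hapln1, or 15.5% (9.27 to 23.6), compared with 3.43% (2.77 to 4.19) of tenocytes without Acan. In WT the overlap was 2 of 69 cells, too few to read. Sox9 was found in 29.0% of Acan cells and 13.8% of the rest in WT, and in 27.3% and 15.4% in DTR. Acan cells held Vcan in 44.9% of cases in WT, compared with 21.2% of the rest, but in 15.5% and 14.7% in DTR, where the intervals overlapped.

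Ucma and Vcan were seldom in the same cell in WT. There, 4.55% (2.67 to 7.18) of tenocytes with Ucma held Vcan, compared with 22.8% of those without. In DTR the shares were 7.69% (2.54 to 17.0) and 14.9% (13.6 to 16.3) and in B6 6.82% (1.43 to 18.7) and 8.73% (6.89 to 10.9), with intervals that overlapped. Cilp2 was more frequent in cells with Ucma: 91.7%, 89.2% and 68.2% of Ucma cells held Cilp2 in WT, DTR and B6, compared with 72.0%, 67.0% and 42.8% of the other tenocytes. Vcan was also less frequent in cells with Cilp, at 17.8% compared with 32.6% of cells without it in WT. Cells of a library share their preparation and are not replicates of it.

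Tenocytes were next split by the thinned UMIs of Kera, which encodes keratocan, a small proteoglycan of the collagen fibril, and Slurp1, a small secreted protein. Kera+ cells numbered 166, 97 and 38 and Slurp1+ cells 980, 331 and 57 in WT, DTR and B6, and a single cell of WT held both. The remaining 4026, 2366 and 774 held neither. Thinning drops UMIs, as seen for Acan above, so these may include cells that make Kera or Slurp1. The levels are from all UMIs of these cells. Of the 7, 7 and 6 members with at least 20 CPM in Kera+ or Slurp1+ cells, 3, 3 and 2 were over 2-fold higher in Slurp1+ cells, against backgrounds of 10.7%, 7.77% and 27.4% of genes. In the opposite direction 1, 0 and 2 were over 2-fold lower, against 5.45%, 4.88% and 9.89%. Either way, the backgrounds were 16.2%, 12.6% and 37.3%. All genes together were at a median log2 ratio of 0.32, 0.19 and 0.42 towards Slurp1+ cells. The members are to be read against that shift. The high B6 backgrounds come with only 38 and 57 cells. Acan and Ucma in WT, Hapln1 in DTR and Vcan, Sox9 and Ucma in B6 reached 20 CPM only in the kind of cell where they were higher.

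Vcan separated these kinds of cell most. Slurp1+ cells held 1048, 853 and 698 CPM of Vcan in WT, DTR and B6, and Kera+ cells 59.5, 31.2 and 14.1 CPM, the last from 6 UMIs. The ratios were 17.6 (14.8 to 21.1), 27.3 (20.04 to 38.3) and 49.6 (22.6 to 136). Over the alternatives run they ranged from 13.04 to 22.4 in WT, 12.8 to 50.3 in DTR and 15.3 to 59.8 in B6, always higher in Slurp1+ cells. Tenocytes with neither UMI lay between, at 135, 88.6 and 42.8 CPM. Sox9 was split the same way and less far, at 192, 217 and 80.4 CPM in Slurp1+ cells and 47.5, 50.7 and 11.7 CPM in Kera+ cells, which is 4.04, 4.28 and 6.85-fold higher in Slurp1+ cells. The B6 ratio rests on 5 UMIs in Kera+ cells and ranged from 1.47 to 15.9 over the alternatives run.

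Acan followed this split in WT and not in DTR. In WT it stood at 21.9 CPM in Slurp1+ and 5.99 CPM in Kera+ cells, a ratio of 3.65 (2.104 to 6.94). In DTR it stood at 37.5 and 39.0 CPM, a ratio of 0.961 (0.699 to 1.34), and the cells with neither held 30.8 CPM. The Kera+ value of DTR rests on 50 UMIs in 11 cells, of which 18 were in a single cell, and after thinning 1 of the 97 Kera+ cells held a UMI (1.03%, 0.0261 to 5.61), compared with 4.23% (2.33 to 6.99) of Slurp1+ cells. Over the alternatives run the ratio ranged from 1.78 to 8.27 in WT and from 0.707 to 14.4 in DTR, the last in female cells. Hapln1 was 12.8-fold (3.48 to 106) higher in Slurp1+ cells in WT, from 163 against 2 UMIs, and 2.94-fold (1.81 to 5.06) higher in DTR. In male cells of WT alone, Kera+ cells held 0 Hapln1 UMIs, and no order can be read.

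Ucma, Cilp2 and Prg4 were lowest in Slurp1+ cells in WT and DTR. Ucma was at 76.6, 15.5 and 32.7 CPM in cells with neither UMI, at 22.1, 10.9 and 25.8 CPM in Kera+ cells and at 7.66 and 1.25 CPM in Slurp1+ cells of WT and DTR, with 0 UMIs in those of B6. Cilp2 was higher in Kera+ than in Slurp1+ cells in every library, at 1394 against 823 CPM, 1405 against 798 and 491 against 237, or 1.69, 1.76 and 2.07-fold. Prg4 was 1.68-fold higher in Kera+ cells in WT, at 14011 against 8315 CPM, and 1.12 and 1.18-fold in DTR and B6, of which the last turned in male cells alone (log2 ratio 0.89 towards Slurp1+) and when 2 UMIs were asked of a positive cell (0.10). Cilp was at 0.960 to 1.15 (interval of a ratio of 1.05) between Slurp1+ and Kera+ cells in B6 and 1.21 and 1.46-fold higher in Slurp1+ cells in WT and DTR. In WT, DTR and B6 the log2 ratios of Cilp were 0.28, 0.54 and 0.07, beside medians of 0.32, 0.19 and 0.42 for all genes. Only in DTR did Cilp thus lie above the typical gene.

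**Figure D4:**
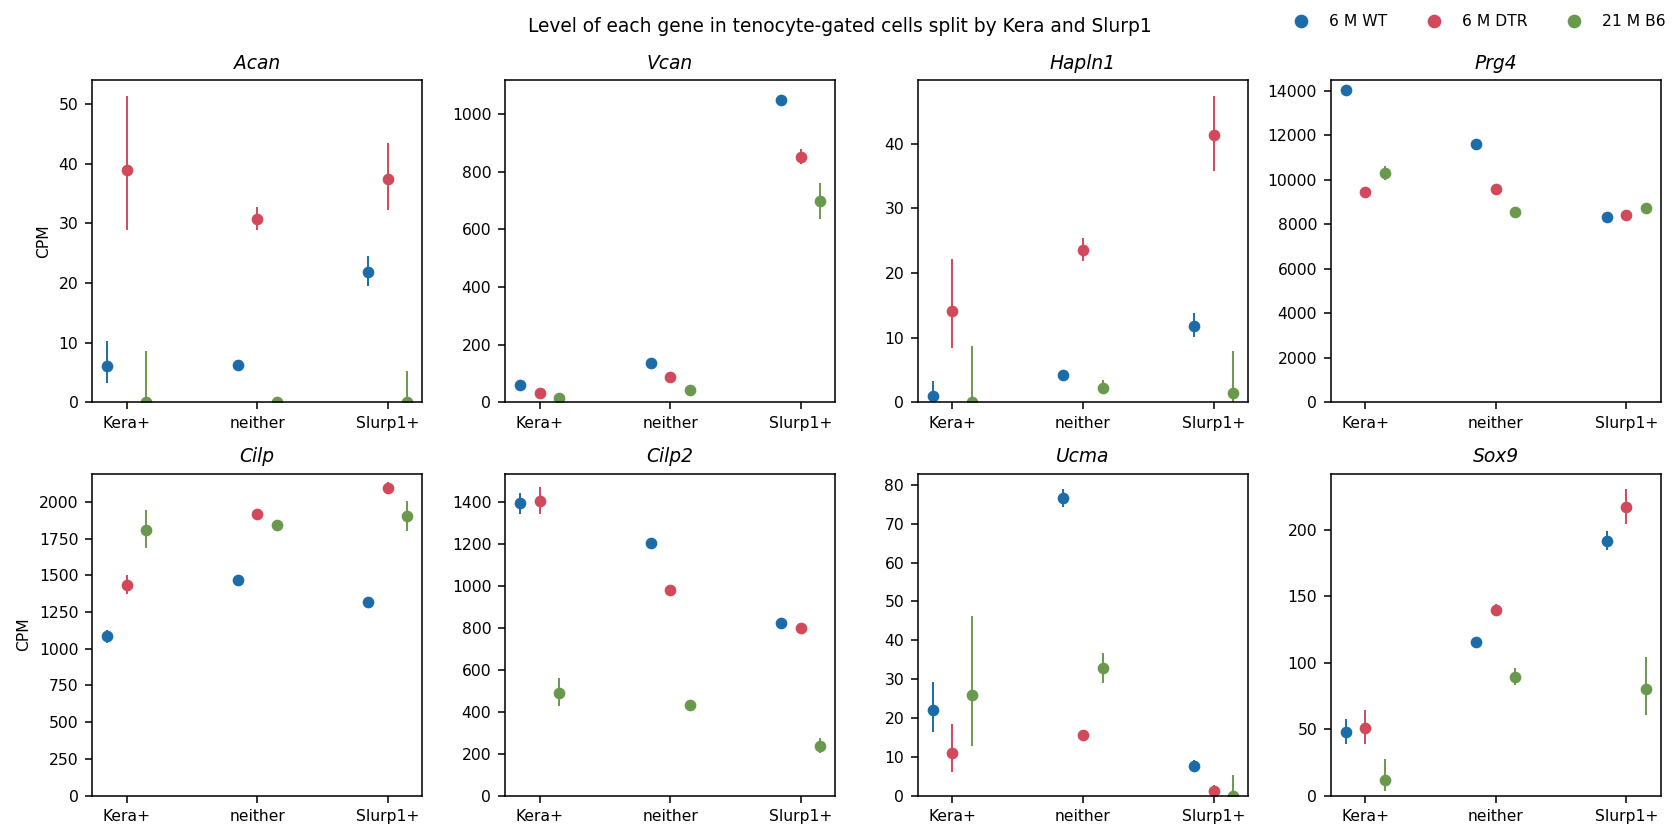
Level of each member (linear axis from 0, CPM) in Kera+, Slurp1+ and other tenocytes, with 1 point per library and exact 95% Poisson intervals. Vcan is highest in Slurp1+ cells in each library, at 1048, 853 and 698 CPM, and Cilp2 is highest in Kera+ cells.

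The differences between libraries were then taken inside each kind of tenocyte. Slurp1+ cells made up a smaller part of the tenocytes of B6 than of WT, 57 of 869 against 980 of 5173. Their part was smaller in DTR than in WT as well. Inside Slurp1+ cells Vcan stood at 0.814 (0.786 to 0.843) of the WT level in DTR and 0.666 (0.608 to 0.729) in B6, closer to 1 than the 0.593 and 0.278 of all tenocytes. Inside cells with neither UMI it stood at 0.658 and 0.317. Inside Kera+ cells Vcan stood at 0.525 (0.358 to 0.753) in DTR and 0.237 (0.0853 to 0.530) in B6, from 40 and 6 UMIs. These lie further from 1 than in all tenocytes, with intervals that include the values of all tenocytes. Cilp2 was lower in B6 in each kind of cell, at 0.288 of the WT level in Slurp1+, 0.352 in Kera+ and 0.357 in the other cells, beside 0.369 in all tenocytes. Acan was higher in DTR in each, by 1.71-fold (1.42 to 2.07) in Slurp1+, 6.51-fold (3.48 to 13.1) in Kera+ and 4.91-fold (4.33 to 5.58) in the other cells. The Kera+ value sets 50 UMIs in 11 cells against 13 UMIs in 10 cells, and the thinned shares of 1.03% and 0.602% had overlapping intervals. For Ucma the DTR level was 0.163, 0.493 and 0.203 of that in WT.

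Genes with a profile like that of each member were searched among 6539 genes over 9 profiles, the Kera+, Slurp1+ and other tenocytes of each library. The profiles come from 3 libraries and from 38 to 4026 cells each, so the correlations are descriptions. Vcan was closest to Slurp1 itself (r = 0.99), Ywhaq (0.99) and Pmp22 (0.99), and Slurp1 was used to make the profiles. Acan was closest to Pdxdc1 (r = 0.99), Kdelr2 (0.98) and Zc3h6 (0.97), and Hapln1 to Acaa1a (0.99), Snx14 (0.98) and Ank (0.97), the last a transporter of pyrophosphate and citrate. In the Kera+, Slurp1+ and other cells of B6, Acan had 0, 0 and 1 UMIs and Hapln1 0, 1 and 20. The correlations of these members thus rest in part on profiles with few or no UMIs. Sox9 was closest to Stard3nl (0.98), Taok3 (0.98) and Ing1 (0.98), and Cilp2 to Nucb2 (0.96), Zbtb20 (0.96) and Cisd2 (0.95). The closest to Ucma were ribosomal protein genes, Rplp1 (0.95), Rpl27a (0.95) and Rps19 (0.94). Cilp was closest to Acta1 (0.93), a muscle actin, Pdgfra (0.92) and Elmsan1 (0.92), and Prg4 to Hipk2 (0.89), Calhm6 (0.87) and Xrn2 (0.86). Acta1 is among the myofibre markers whose sums differed between libraries, as given below. The part of such RNA in its likeness to Cilp was not tested. Between members, Acan went most closely with Hapln1 (r = 0.88) and Vcan with Sox9 (r = 0.78), and Vcan ran against Ucma (r = −0.68).

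The rest of the cartilage programme ranged from genes that were hardly found to abundant ones in the same tenocytes. List genes were counted from 5 CPM, where 3.02% of all genes were over 2-fold higher and 1.65% lower in DTR than in WT, and 3.55% higher and 3.34% lower in B6 than in WT (6.88% either way). A list gene needed 5 CPM in 1 of the libraries compared, so it could be counted through the library where it was higher. Of 23 other cartilage matrix genes, 11 reached 5 CPM in WT or DTR, of which 2 were over 2-fold higher and 1 lower in DTR, with a median log2 ratio of 0.69 beside 0.05 for all genes. Frzb, among the higher genes, and Epyc passed the limit through DTR only, at 3.40 and 3.19 CPM in WT. Against WT, 5 of 9 were over 2-fold lower in B6, with none over 2-fold higher and a median of −1.15 beside −0.27. Matn4 and Scrg1, both among the lower genes, passed it there through WT only, at 1.29 and 0.198 CPM in B6. Comp, an abundant pentameric matrix protein of tendon and cartilage, stood at 5076, 7145 and 4852 CPM in WT, DTR and B6. Chad, which binds collagen, stood at 2827, 2660 and 1538 CPM, and Col11a1, a chain of a fibril-forming cartilage collagen, at 172, 234 and 104 CPM. Col11a2, a partner chain, was at 45.8, 9.60 and 16.6 CPM.

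The other lecticans and link proteins (Bcan, Ncan, Hapln2, Hapln3 and Hapln4) were below 5 CPM in the tenocytes of every library. So was Col2a1, the defining collagen of cartilage, with 48, 165 and 6 UMIs in all tenocytes. The 8 chondrocyte markers together gave 4.82, 6.79 and 1.49 CPM, with 1, 2 and 5 of the 8 at 0 and Matn1 at 0 in every library. The 4 osteoblast markers gave 0.880, 18.9 and 0.397 CPM, with 1, 0 and 3 at 0. These sums were highest in DTR, as were Acan and Hapln1, and their part in those levels was not tested.

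Of the chondrogenic factors other than Sox9, most of them transcription factors, 8 of 10 reached 5 CPM, and 2 were over 2-fold higher in DTR than in WT (median log2 ratio 0.03 beside 0.05). Sox5, a partner of Sox9 on cartilage enhancers, stood at 23.8, 55.8 and 15.8 CPM and Sox6, its close relative, at 34.2, 30.7 and 19.1 CPM. Runx1 was abundant, at 576, 554 and 675 CPM. In B6, 1 of 8 was over 2-fold higher than in WT, namely Arid5a, at 96.5 against 32.1 CPM (median −0.18 beside −0.27).

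The genes listed for making chondroitin sulfate, the sugar chains of aggrecan and versican, were mostly expressed: 20 of 22 reached 5 CPM in WT or DTR. There 2 were over 2-fold higher in DTR (background 3.02%, median 0.24 beside 0.05), and 2 of 18 were over 2-fold lower in B6 than in WT (background 3.34%, median −0.46 beside −0.27). Of the libraries compared, Csgalnact1, among the higher genes, reached 5 CPM in DTR only. Chst3 and Chst7, among the lower ones, reached it in WT only. Xylt1, which starts the chain, was at 26.7, 41.2 and 14.2 CPM. Of the genes for cleavage of aggrecan and versican and its inhibitor, 2 of 5 were over 2-fold higher in B6 than in WT (background 3.55%) and none lower, with a median of 0.93 beside −0.27. In DTR 0 of 4 were over 2-fold higher and 1 was lower (background 1.65%), with a median of −0.30 beside 0.05. Adamts1 stood at 141, 102 and 347 CPM and Adamts5 at 204, 352 and 239 CPM.

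Of the hyaluronan genes 2 of 6 were over 2-fold higher in B6 than in WT (background 3.55%, median 0.32 beside −0.27), among them Has1, a hyaluronan synthase, at 271, 268 and 680 CPM. In DTR, 1 of 6 was (median 0.13 beside 0.05). Among genes of gamma-carboxylation, the modification that Ucma carries, Mgp, an inhibitor of calcification with the same modification, was 3.29-fold higher in DTR and 2.40-fold higher in B6 than in WT, at 661, 2173 and 1586 CPM. It was the single gene of 4 past 2-fold in each, against backgrounds of 3.02% and 3.55% higher. The list medians were 0.33 in DTR, beside 0.05 for all genes, and −0.28 in B6, beside −0.27. Ucma was lower than in WT in both of these libraries.

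Markers of other cells inside the tenocyte class differed between libraries. The 6 myofibre markers summed to 41.3, 124 and 171 CPM, and the 4 haemoglobin genes to 1440, 5084 and 1201 CPM. The 6 epitenon markers summed to 944, 690 and 974 CPM, with none at 0, and the 6 markers of other myeloid cells to 38.4, 1.53 and 0.793 CPM, with 0, 0 and 2 at 0. Their part in the member levels was not tested.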

How the data were processed

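FDL tendons of 3 groups (WT, DTR and B6; values below are in that order) were measured by single-cell RNA sequencing with the 10x Genomics 3′ v3 kit, 1 library each. The authors counted UMIs per gene and barcode, and the deposited counts are not normalized. The matrix headers name Cell Ranger 6.0.1 and the submitters' processing notes Cell Ranger 2.1.1; the genome build is not given in the sources used here. The libraries held 15536, 16099 and 12273 barcodes with 148149903, 123918145 and 92707026 UMIs. Following the study's methods, a cell needed 1000 to 5000 genes and no more than 10% mitochondrial UMIs, which left 53.8%, 40.7% and 39.1% of barcodes. Scrublet marked 2, 7 and 1 cells, under 0.5%, and so has not worked; doublets were kept.

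Cells were gated on markers, 3 of 6 for 1 of 8 classes, and counts were summed per class and scaled to CPM. Ratios carry exact conditional intervals, CPM exact Poisson intervals and shares exact Clopper-Pearson intervals, at 95%. A gene was counted past 2-fold with at least 20 CPM in 1 of the classes compared, and list genes with at least 5 CPM. Named genes were the 8 members, Kera, Slurp1, Scx, list members with 20 CPM in 1 library and, for each member, the 3 genes of highest Pearson correlation of log2(CPM + 1). Some list members below 20 CPM are named as well. Members and lists were chosen with earlier results of these data known. Promoter sequences are from RefSeq.

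Alternatives changed the filter, gate, clusters, sex calls, depth, positivity and scaling; one, which left out the 5% of cells with the highest doublet scores, was chosen after seeing the data. The calculation was run on simulated Poisson counts with known folds. These had no spread between cells or libraries, so the run checks the calculation and not how wide the intervals should be in real cells. No column of another series was present. Tools were scanpy 1.11.5, leidenalg 0.10.2, numpy 2.4.6, pandas 2.3.3, scipy 1.17.1, matplotlib 3.10.9 and, for TMM factors only, edgeR 4.0.16.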

Additional observations from a re-analysis of the deposited data

Results flagged for a closer look

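Prg4 did not keep its order between tenocytes and the epitenon in all libraries. It was 1.52-fold higher in tenocytes in WT and 1.39-fold higher in B6, but stood at 0.900 of the epitenon level in DTR. The difference between libraries was not tested, since each is a single library.

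Sox9 differed in direction between cells called female and male. In tenocytes, the DTR level was 1.31 times that of WT in female cells and 0.800 times in male cells. The difference between the sexes was not tested.

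Acan was found outside the kept cells of B6. The barcodes with over 5000 genes, which the filter leaves out, numbered 357 and held 9 Acan UMIs, compared with 1 UMI in the 869 kept tenocytes. Of these UMIs, 8 were in 3 barcodes that reached the markers of more than 1 class and 1 was in a barcode gated as a tenocyte.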

How the results depend on the processing

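No paired analysis was possible because each group is a single library. Of 213 counts and medians under alternatives, 204 stayed within the limits set and 9 moved. These limits were wide enough for a count of 3 that became 2 to be taken as unchanged. Ucma in B6 against WT, which was counted as past 2-fold, stood at 0.760 of the WT level in female cells alone. Members past 2-fold between Slurp1+ and Kera+ cells of B6 numbered 4, and 2 in female cells, 2 after thinning to 1000 UMIs, 1 at 4000 and 2 with positive cells taken from 2 UMIs. Between B6 and DTR they numbered 5, and 3 in male cells and 3 under TMM scaling. Members with a UMI in at least 5% of tenocytes numbered 5 in DTR and 8 without thinning, and 6 in B6 and 3 from 2 UMIs. The share of all genes that reach this limit was not counted. In B6 Ucma reached it narrowly, at 5.06%, so the DTR and B6 counts give no order. The cleavage list median between B6 and DTR was 1.74, and 0.97 with genes of at least 20 CPM. Of 1042 single-member values 625 stayed within the counting interval of the main value, 406 moved outside it and 11 turned direction, the last given here as log2 ratios. Cilp in B6 against DTR went from −0.06 to 0.010 (mitochondrial limit of 5%), 0.0082 (male cells), 0.27 (TMM) and 0.011 (without mitochondrial and ribosomal genes), and Prg4 there from −0.13 to 0.21 (TMM). Prg4 in tenocytes against the epitenon of DTR went from −0.15 to 0.018 (mitochondrial limit of 5%) and 0.58 (stricter gate). Sox9 in DTR against WT went from 0.19 to −0.32 (male cells). Between Slurp1+ and Kera+ cells, Hapln1 of WT went from 3.68 to −0.40 (male cells, where Kera+ cells held 0 UMIs and the value is set by the floor of 3), and Prg4 of B6 from −0.24 to 0.89 (male cells) and 0.10 (from 2 UMIs). The cause was not tested. TMM scaling moved the median of all genes to −0.10, −0.03 and 0.08 for DTR against WT, B6 against WT and B6 against DTR, from 0.02, −0.26 and −0.29. Acan in DTR against WT ranged from 1.31 in female to 5.96 in male cells, and Ucma from 0.148 to 0.233. Depth limits how closely the levels of Acan and Hapln1 in B6 can be given, with 1 and 21 UMIs.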
